A study of Mus musculus with 34 samples.

Results

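Fetal hepatocyte genes are 38 genes that mark the hepatoblasts and young hepatocytes of the developing liver, chosen from a written list of secreted proteins, enzymes, a surface protein and transcription factors. All 38 were found among the 18193 genes on the array and all 38 were among the 12723 genes tested, each read from its probe set with the highest mean signal. Total RNA came from untreated, unsorted livers of mouse fetuses and was hybridised to 34 Affymetrix arrays. The arrays fell into 8 genotypes of the retinoblastoma family genes Rb1, p107 (Rbl1) and p130 (Rbl2). There were 2 wild type arrays, 1 p107 KO, 3 p130 KO, 6 p107;p130 DKO, 2 Rb1 KO, 5 Rb1;p107 DKO, 9 Rb1;p130 DKO and 6 Rb1;p107;p130 TKO arrays, where KO, DKO and TKO are single, double and triple knockouts. The labels give embryonic day 14.5 for every array, and the series text gives a span that begins 1 day earlier. The labels do not name the alleles, the Cre driver, if any, the strain, or whether arrays came from separate animals, so a p-value covers the spread between arrays, which may be technical.

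Hepatoblasts are the fetal liver's own epithelial cells. They secrete plasma proteins such as albumin and alpha-fetoprotein and later become hepatocytes or bile duct cells. A network of transcription factors that includes Hnf4a, Cebpa and the Foxa proteins is known to drive their genes. In the fetus these cells share the liver with a much larger mass of blood-forming cells, and RNA from the whole organ was measured here. Fewer hepatocytes and less of an RNA per hepatocyte therefore cannot be told apart. The retinoblastoma proteins hold back the cell cycle by binding E2F factors.

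The arrays carried a strong hepatocyte signal. Alb, albumin, ran from 25680 to 48160 with a median of 35690 (MAS5 signal, the linear intensity of a probe set, n = 34), and Afp, alpha-fetoprotein, from 30170 to 52400. Summed over the 38 genes, the signal ran from 216971 on p107;p130 DKO array 1 to 359183 on p130 KO array 2. Markers of the labelled tissue were thus present on every array, and so were those of blood cells. Slc4a1, the red cell anion exchanger, had a mean signal of 35810, S100a8 of neutrophils 21110, Pf4 of platelets 10050, Csf1r of macrophages 3597, Col3a1 of mesenchyme 5197 and Lyve1 of endothelium 1332. The targeted genes followed the labels in the mean, though single Rbl2 arrays overlapped. Rbl2 read 246.2 on Rb1;p107 DKO array 5, which carries p130, and 265.4 on TKO array 3, which lacks it. With an additive fit that has 1 term for the loss of each gene, Rb1 signal was lower by a log2 change of -2.43 ± 0.11 (SE) without Rb1, Rbl1 by -4.00 ± 0.12 without p107 and Rbl2 by -0.85 ± 0.12 without p130.

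The start regions of a few of these genes are shown with matches to the letters of liver factor motifs. Binding of the factors was not measured. Promoter windows of 250 bases before the annotated start were taken from RefSeq (GRCm38.p6). 31 of the 38 genes matched an entry, and Ttr, Apof, Cps1, Kng1, Proc, Plg and Apoc1 did not. Alb and Afp are shown because they are neighbours in the genome whose signals varied together, Fgb as the fibrinogen chain that held both motifs close to its start, and Acox2 because its signal differed with p107. Capitals mark matches, on either strand, to a CEBP motif (TTGCNNAA) and to the first letters of an HNF1 site (GTTAAT).
Alb, chr5:90460620-90460869, plus strand: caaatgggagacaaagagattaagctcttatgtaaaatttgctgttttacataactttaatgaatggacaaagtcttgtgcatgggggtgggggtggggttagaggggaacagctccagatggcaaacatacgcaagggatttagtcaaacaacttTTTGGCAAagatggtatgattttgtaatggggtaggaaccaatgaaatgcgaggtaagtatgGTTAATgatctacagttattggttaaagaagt
Afp, chr5:90490464-90490713, plus strand: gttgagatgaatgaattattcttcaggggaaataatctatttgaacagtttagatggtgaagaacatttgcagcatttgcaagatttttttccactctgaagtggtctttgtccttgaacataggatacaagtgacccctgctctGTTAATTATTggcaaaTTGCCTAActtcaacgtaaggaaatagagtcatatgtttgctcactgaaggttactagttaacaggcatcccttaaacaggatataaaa
Fgb, chr3:83049864-83050113, minus strand: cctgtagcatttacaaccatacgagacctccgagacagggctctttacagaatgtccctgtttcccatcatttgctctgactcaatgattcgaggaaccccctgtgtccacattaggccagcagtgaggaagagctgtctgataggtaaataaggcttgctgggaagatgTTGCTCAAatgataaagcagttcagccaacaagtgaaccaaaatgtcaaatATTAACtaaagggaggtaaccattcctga
Acox2, second start, chr14:8258840-8259089, minus strand: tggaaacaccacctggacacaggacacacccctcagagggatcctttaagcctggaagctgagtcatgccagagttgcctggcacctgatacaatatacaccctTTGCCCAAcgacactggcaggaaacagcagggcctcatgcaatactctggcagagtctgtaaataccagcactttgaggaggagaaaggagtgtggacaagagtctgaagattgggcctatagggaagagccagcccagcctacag
In Afp the capitals cover a longer stretch of the HNF1 motif from 105 to 96 bases before the start, and the GTTAAT match lies inside it. The Alb window held GTTAAT from 32 to 27 and the CEBP letters from 94 to 87 bases before the start. Fgb held the same pair, with the CEBP letters from 80 to 73 and GTTAAT from 29 to 24 bases before the start, on the opposite strand. Of the other fibrinogen chains, Fga held the CEBP letters from 135 to 128 and GTTAAT from 43 to 38 bases before the start, and the Fgg window held no match to either. The first annotated start of Acox2 held no match to either motif, while the second held the CEBP letters from 146 to 139 bases before it. Over the genes with a window, TTGCNNAA was found in 12 and GTTAAT in 10. Of the 32851 windows of all genes, 9.56% held TTGCNNAA, 6.43% held GTTAAT and 0.371% held the longer HNF1 stretch found in Afp. The FOXA letters TGTTTAC were found in 5 of the genes (Apoa2, Apoh, Dlk1, Foxa1 and Rbp4) and in 3.17% of all windows. The HNF4 letters CAAAGTCCA were found in 0 of these genes and in 0.384% of all windows, and the whole HNF1 motif, searched by name, in 0 of them and in 0.00913%. GTTAAT was added after the sequences had been seen.

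The genes differed in how far their signal spread over the 34 arrays. Among the plasma carriers, Ttr, which carries thyroid hormone and retinol-binding protein, ran from 20140 to 43170. Rbp4, the retinol carrier, ran from 9756 to 18260, and Ambp, the precursor of alpha-1-microglobulin and bikunin, from 9573 to 18660. The highest array was 1.95 times the lowest for Ambp and 4.61 times for Ahsg, fetuin-A. Among the apolipoproteins, Apoa2 had a narrow spread, with its highest array at 1.64 times its lowest, and Apob, the backbone of very low density lipoprotein, a wide one, from 413.5 to 3063. The clotting genes lay between these, with Fgg, the fibrinogen gamma chain, from 5095 to 12710 and F2, prothrombin, from 1727 to 5958.

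The enzymes and factors differed widely among themselves. The highest array was 2.43 times the lowest for Foxa1, 19.8 times for Cps1 and 35.6 times for the dim Onecut1, which ran from 4.2 to 150.5. Cps1, the first enzyme of the urea cycle, ran from 30.4 to 602 and reached a signal of 100 on 17 of 34 arrays. Fabp1, a fatty acid carrier of the hepatocyte cytoplasm, ran from 436.3 to 5761. Hnf4a, a nuclear receptor that holds the hepatocyte programme, ran from 691.4 to 2371. Prox1, a homeobox factor of migrating hepatoblasts, reached 100 on 20 arrays, and Onecut1, a biliary and hepatoblast factor, and Nr1h4, the bile acid receptor FXR, on 2 arrays each. Within genotypes, the SD of log2(signal + 32) had a median of 0.381 over the 38 genes and of 0.299 over all genes tested.

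**Figure D1:**
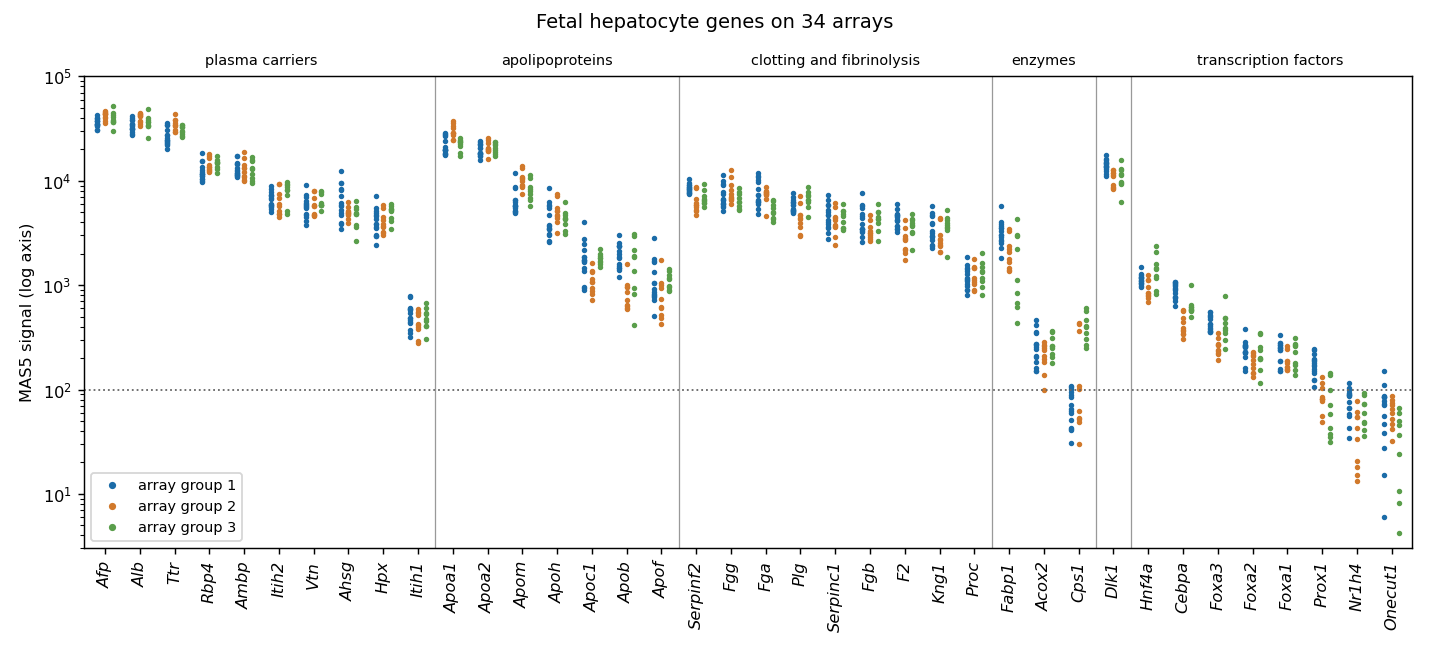
MAS5 signal (log axis) of the 38 fetal hepatocyte genes on 34 arrays, 1 point per array, ordered by role and coloured by array group. The dotted line is a signal of 100; Afp stays between 30170 and 52400, whereas Cps1 is between 248.5 and 602 on the 9 arrays of array group 3 and at 108.9 or below on all 15 of array group 1.

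Part of this spread followed a division of the arrays that the labels do not record. The arrays were clustered on the difference between probe sets of the same gene, with the number of clusters set at 3, and gave array groups of 15, 10 and 9 arrays. These are inferred groups and not a recorded batch. They divided the genotypes unevenly. All 4 arrays of Rb1;p107 DKO outside array group 1 were in array group 2, all 9 arrays of Rb1;p130 DKO were in array groups 1 (5) and 3 (4), and of the 10 arrays in array group 2 a single array, from wild type, carried p107. Cebpa, a factor of the mature hepatocyte, had medians of 927.9, 382.1 and 591.1 in array groups 1, 2 and 3. Its arrays in group 1 (624.2 to 1067) did not overlap those in group 2 (303.1 to 576.4). Cps1 had medians of 64.5, 81.6 and 399.6, and its arrays in groups 1 and 3 did not overlap. Prox1 had medians of 173.1, 81.9 and 58.5. Apoa1, the main protein of high density lipoprotein, went the other way from Cebpa, with medians of 19880, 28860 and 23560. Ambp had medians of 12460, 12690 and 12820, and its array groups overlapped almost completely.

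Array group accounted for 76.1% of the variance of Cebpa, 62.3% of Cps1, 60.6% of Prox1 and 53.9% of Foxa3. The median over the 38 genes was 24.4%, against 21.2% over all genes tested. Genotype accounted for a median of 18.1% of the variance over the 38 genes, against 22.3% over all genes tested. These shares are descriptions of the same arrays and were not tested.

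**Figure D2:**
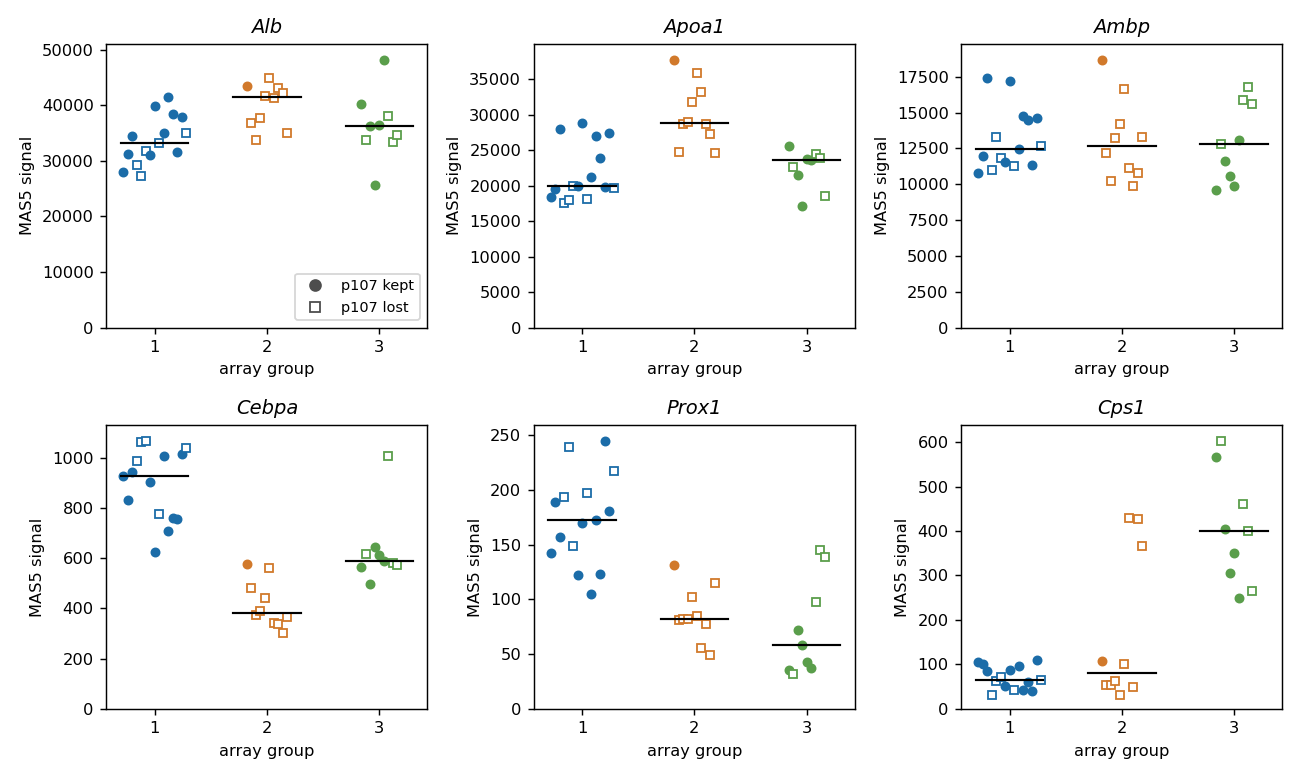
MAS5 signal of 6 hepatocyte genes by inferred array group, 1 point per array, filled circles for arrays that carry p107 and open squares for those that lack it, with a bar at the median. Cebpa and Prox1 are high in array group 1, Cps1 is high in array group 3 and Ambp is alike in all 3, with medians of 12460, 12690 and 12820.

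Loss of Rb1 was followed by no called change in any hepatocyte gene. By limma over all genes tested, 0 of 38 passed a Benjamini-Hochberg adjusted p of 0.05, where 2.26% of all genes tested did. An unadjusted p under 0.05 was found for 0 of 38, against 11.3% of all genes tested. The fit compared 22 arrays without Rb1 with 12 that carried it. Alb had the smallest adjusted p, with a log2 change of 0.13 ± 0.07 (SE, adjusted p = 0.534), and 17 of 22 arrays without Rb1 lay above the mean of those with it. The 95% interval of the Alb change ran from -0.015 to 0.284. Afp changed by 0.10 ± 0.07. The median of the 38 genes was 0.037 and that of all genes tested -0.016. Values above 0 were found for 26 of 38, and for 45% of all genes tested. Leaving out each array in turn, the median of the 38 ran from -0.0023 without TKO array 1 to 0.082 without p130 KO array 2. With array group as a block it was 0.03, and Alb alone had an unadjusted p under 0.05 (0.04 by limma, adjusted p = 0.267).

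By role, 9 of 10 plasma carriers, 4 of 7 apolipoproteins and 8 of 9 clotting genes had log2 changes above 0 with Rb1 loss. The transcription factors were split, with 3 of 8 above 0 and values from -0.17 for Cebpa to 0.07 for Foxa2. For 34 of the 38 genes the 95% interval lay within a log2 change of 0.5 in either direction, and for 37 within 1. The exception was Cps1, at 0.44 ± 0.35, whose arrays with and without Rb1 overlapped, and which was at 0.13 ± 0.24 with array group as a block. The erythroid markers contained genes that moved with Rb1 in the same fit. Epor, the erythropoietin receptor, fell by 0.83 on the log2 scale (adjusted p = 1.55e-07 by limma) and Bpgm, a red cell enzyme, by 0.52 (adjusted p = 1.92e-04). The summed erythroid signal ran from 146249 to 225094 without Rb1 and from 141072 to 223695 with it.

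With loss of p107, 3 of 38 hepatocyte genes were lower and none was higher: the apolipoproteins Apof and Apoc1 and the peroxisomal enzyme Acox2. By limma, 0.723% of all genes tested were called lower and 1.14% in either direction. The fit compared 18 arrays without p107 with 16 that carried it. Apof, which inhibits lipid transfer between lipoproteins, had signals of 1037 and 1735 in wild type and 422.5 in the p107 KO. They were 778.3, 2802 and 1374 in p130 KO and 799.7 and 1656 in Rb1 KO. The p107;p130 DKO arrays ran from 502.7 to 1162 with a median of 893.3. The Rb1;p107 DKO arrays read 826.9, 514.4, 1006, 948.9 and 609. The Rb1;p130 DKO arrays, which carry p107, ran from 726.7 to 1766 with a median of 1252, and the TKO arrays from 488.3 to 971.9 with a median of 828.2. Every genotype without p107 had a lower mean than every genotype with it, but single arrays overlapped. The log2 change was -0.71 ± 0.15 (adjusted p = 0.0118 by limma), 1.64-fold lower on the log2(signal + 32) scale, and 18 of 18 arrays without p107 lay below the mean of those with it.

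Apoc1, which rides on several lipoproteins and restrains their uptake, read 1468 and 1647 in wild type, 721.1 in the p107 KO and 1739, 4021 and 1820 in p130 KO. It read 1859 and 2473 in Rb1 KO and 899.8, 1071, 1379, 1074 and 820.3 in Rb1;p107 DKO. The p107;p130 DKO arrays ran from 946.3 to 2241 (median 1248), the Rb1;p130 DKO arrays from 960.7 to 2764 (median 1759) and the TKO arrays from 881.3 to 1869 (median 1692). The last 2 genotypes overlapped almost entirely, while the Rb1;p107 DKO lay below the Rb1 KO on every array. The log2 change was -0.55 ± 0.14 (adjusted p = 0.0437 by limma), with 17 of 18 arrays below the mean of those with p107.

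Acox2, which shortens the side chain of bile acid precursors, read 264.8 and 261.9 in wild type, 98.99 in the p107 KO and 257.6, 462.8 and 362.8 in p130 KO. It read 245.2 and 349.1 in Rb1 KO and 150.5, 266, 249, 286 and 209.9 in Rb1;p107 DKO. The p107;p130 DKO arrays ran from 139.2 to 238.3 (median 196.2), the Rb1;p130 DKO arrays from 203.3 to 414.1 (median 270.2) and the TKO arrays from 151.4 to 355.4 (median 189.1). The p107;p130 DKO arrays all lay below the p130 KO arrays, as did the p107 KO array below wild type, and both pairs of genotypes without Rb1 overlapped. The log2 change was -0.46 ± 0.12 (adjusted p = 0.0437 by limma), with 17 of 18 arrays below the mean of those with p107.

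**Figure D3:**
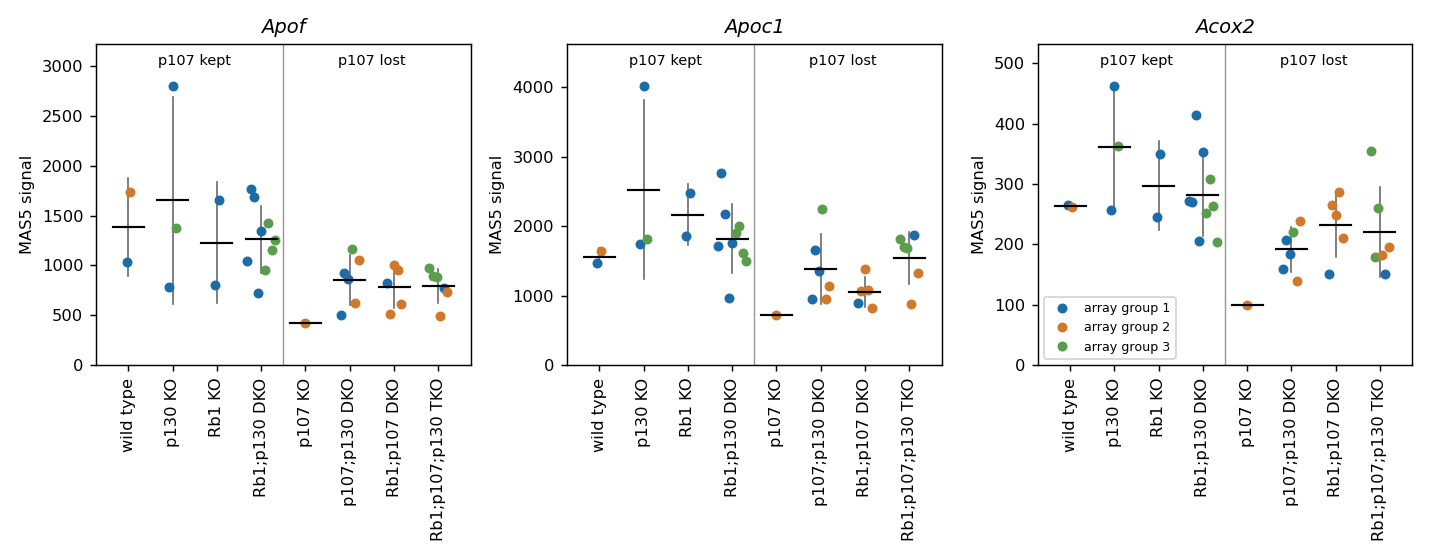
MAS5 signal of Apof, Apoc1 and Acox2 by genotype, 1 point per array coloured by inferred array group, with a bar at the genotype mean and a line of ± 1 SD where a genotype has over 1 array. The genotypes without p107 stand to the right of the vertical line; Apof means there are 422.5 to 855.4, against 1228 to 1651 to the left.

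The p107 difference was set out within each background. For Apof, p107 KO minus wild type was -1.6, p107;p130 DKO minus p130 KO was -0.79, Rb1;p107 DKO minus Rb1 KO was -0.59 and TKO minus Rb1;p130 DKO was -0.64 in log2 units. For Apoc1 these were -1.08, -0.82, -1.03 and -0.23, and for Acox2 -1.17, -0.80, -0.33 and -0.33. All 12 values were below 0. These differences use the arrays of the additive fit and are not further evidence for it.

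The calls did not hold when array group was added as a block. By limma with the block, 0 of 38 genes were called, where 0.66% of all genes tested were, and 9 of 38 had an unadjusted p under 0.05. Apof then had a log2 change of -0.66 ± 0.17 (adjusted p = 0.0649), Acox2 of -0.46 ± 0.14 (adjusted p = 0.113) and Apoc1 of -0.39 ± 0.15 (adjusted p = 0.268). Within array groups 1, 2 and 3, arrays without p107 minus arrays with it gave -0.69, -1.31 and -0.32 for Apof, -0.72, -0.34 and -0.13 for Acox2 and -0.59, -0.68 and 0.07 for Apoc1. Array group 2 holds 1 array with p107, so its value rests on that array. Leaving out each array in turn, Apof was called every time (adjusted p from 0.00531 to 0.028), while Acox2 lost its call in 17 of 34 cases (adjusted p from 0.0169 to 0.0827) and Apoc1 in 18 of 34 (adjusted p from 0.0126 to 0.0849). The Acox2 call was lost when any of these was left out: wild type array 1, p107 KO array 1, p130 KO arrays 2 or 3, p107;p130 DKO arrays 1, 3 or 5, Rb1 KO arrays 1 or 2, Rb1;p107 DKO array 5, Rb1;p130 DKO arrays 1, 3 or 5, or TKO arrays 2, 4, 5 or 6. The Apoc1 call was lost when any of these was left out: wild type array 1, p107 KO array 1, p130 KO arrays 2 or 3, p107;p130 DKO arrays 1, 5 or 6, Rb1 KO arrays 1 or 2, Rb1;p107 DKO arrays 2, 4 or 5, Rb1;p130 DKO arrays 1, 2, 3 or 5, or TKO arrays 4 or 6. Without p130 KO array 2, which was the highest of all arrays for 17 of the 38 genes, Apof was called alone at -0.63. That array also had the highest summed signal of macrophage (25287), neutrophil and granule (111358) and endothelial (7323) markers. Its erythroid, platelet, stem and progenitor, and mesenchymal sums were not the highest.

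Most of the other hepatocyte genes had values below 0 for p107 loss in the additive fit, though they missed the threshold. In all, 31 of 38 had log2 changes below 0, where 49.1% of all genes tested were above 0. Of the 38, 11 had an unadjusted p under 0.05, as did 17% of all genes tested. The median was -0.098, against -0.0027 over all genes. Without p130 KO array 2 it was -0.037. The backgrounds differed in this. In p107 KO minus wild type 32 of 38 were lower (median -0.4), in p107;p130 DKO minus p130 KO 34 (median -0.20) and in Rb1;p107 DKO minus Rb1 KO 26 (median -0.21). In TKO minus Rb1;p130 DKO, the background with the most arrays (6 against 9), 18 were lower and 20 higher, with a median of 0.0076 that ran from -0.03 without TKO array 1 to 0.04 without Rb1;p130 DKO array 2. All 9 clotting and fibrinolysis genes were below 0, with F2 at -0.35 ± 0.13 (adjusted p = 0.156), Fgb, the fibrinogen beta chain, at -0.28 ± 0.12 (adjusted p = 0.223) and Serpinf2, the plasmin inhibitor, at -0.25 ± 0.09 (adjusted p = 0.167). Among the plasma carriers Ahsg was at -0.37 ± 0.14 and Hpx, the heme scavenger hemopexin, at -0.24 ± 0.12. Alb (0.01 ± 0.07), Afp (0.03 ± 0.06), Ttr (-0.0005 ± 0.09) and Apoa1 (0.03 ± 0.10) were close to 0 in this fit. Their values with array group as a block were -0.11 ± 0.07 for Alb, -0.08 ± 0.06 for Afp, -0.19 ± 0.08 for Ttr (unadjusted p = 0.0153, adjusted p = 0.261 by limma) and -0.20 ± 0.08 for Apoa1 (unadjusted p = 0.0185, adjusted p = 0.283 by limma). Whether an upper limit of the scanner narrowed the changes of these bright genes was not tested.

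The direction differed between array groups. In array group 1, 32 of 38 genes were lower without p107, with a median of -0.27 (5 arrays against 10). In array group 2, 35 of 38 were lower, with a median of -0.41, a value that rests on 1 array with p107 (9 against 1). In array group 3, 33 of 38 were higher, with a median of 0.31 (4 against 5). The difference between array groups was not tested. The share of all genes in each direction was not read within array groups, so these counts may not be particular to hepatocyte genes. With the block, the transcription factors had 6 of 8 values above 0, among them Hnf4a at 0.26 ± 0.11 (adjusted p = 0.319) and Foxa1, which opens liver chromatin, at 0.33 ± 0.11 (adjusted p = 0.184). The clotting genes stayed below 0 in 9 of 9, but their median went from -0.24 to -0.11 and the count with an unadjusted p under 0.05 from 4 to 0. F2 was then at -0.10 ± 0.12 and Serpinf2 at -0.07 ± 0.08. Cebpa was at -0.33 ± 0.16 without the block and at 0.11 ± 0.10 with it.

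**Figure D4:**
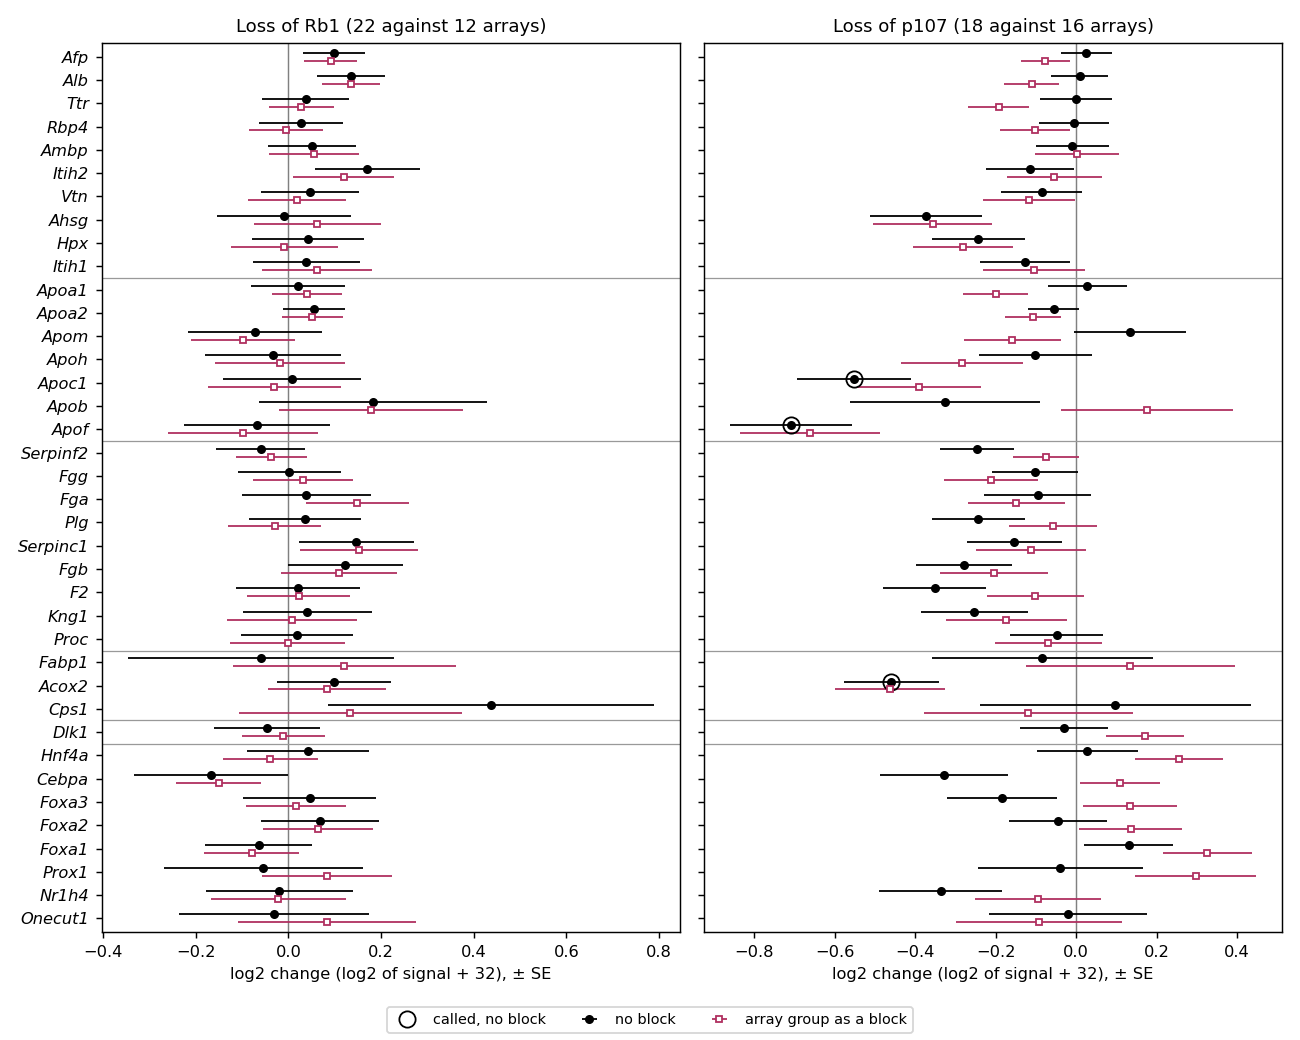
Log2 change ± SE of each hepatocyte gene with loss of Rb1 (left) and of p107 (right) in the additive fit, filled circles without a block and open squares with array group as a block, with rings around called genes. No gene is ringed on the left; Apof, Apoc1 and Acox2 are ringed on the right, at -0.71, -0.55 and -0.46.

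Other hepatocyte genes, from lists written with earlier results of these data known, were read in the same fit. Of 37 further hepatocyte genes tested, 3 were lower without p107 and 0 higher, and 30 had values below 0 with a median of -0.22. F13b, the carrier subunit of clotting factor XIII, fell by 0.86 on the log2 scale (adjusted p = 0.00727 by limma), F9, clotting factor IX, by 0.67 (adjusted p = 0.014) and C8a, a complement chain, by 0.52 (adjusted p = 0.0273). With array group as a block their adjusted p were 0.15, 0.0604 and 0.23, and without p130 KO array 2 they were 0.0164, 0.0317 and 0.0492. F9 was dim, with a mean log2(signal + 32) of 6.91 with p107 and 6.21 without. Of 17 enzymes of the later liver, 0 were called, 7 had an unadjusted p under 0.05, and 17 of 17 had values below 0 with a median of -0.20. Of 13 further liver transcription factors 0 were called, 1 had an unadjusted p under 0.05, and the median was -0.053. Of 4 biliary and hepatoblast markers 0 were called and 1 had an unadjusted p under 0.05. With Rb1 loss, these 4 lists had 0 genes called, and the unadjusted p was under 0.05 for 1 of 37, 0 of 13, 1 of 17 and 1 of 4.

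Markers of other cells were read beside these values. Of 12 stellate and mesenchymal markers, 10 were above 0 with p107 loss (median 0.26) and 1 was called, Pdgfrb, a growth factor receptor of mesenchyme, at 0.67 ± 0.11 (adjusted p = 8.69e-04 by limma). With array group as a block Pdgfrb was at 0.56 (adjusted p = 0.013). Their summed signal ran from 14018 to 34831 without p107 (median 19769) and from 11295 to 33339 with it (median 17820). Of 10 stem and progenitor markers, 9 were above 0 and 0 called, with 4 at an unadjusted p under 0.05. Their sums ran from 6391 to 8595 without p107 and from 5502 to 8064 with it. Of 12 erythroid markers, Epor was called, falling by 0.43 on the log2 scale (adjusted p = 0.0119 by limma, 0.113 with the block), 6 were above 0, and the sums ran from 141072 to 225094 without p107 and from 146249 to 223695 with it. Of 10 neutrophil and granule markers, 9 were below 0 with p107 loss (median -0.21), 0 were called and 2 had an unadjusted p under 0.05. In p107;p130 DKO minus p130 KO all 10 were below 0 (median -0.45), and in TKO minus Rb1;p130 DKO also all 10 (median -0.35). Their sums ran from 40384 to 101541 without p107 (median 66450) and from 43769 to 111358 with it (median 65547). The macrophage, platelet and endothelial lists had 0 genes called and medians of 0.053, 0.12 and 0.033. The part of these cells in the hepatocyte values was not tested. Sex, read from Xist and Y-linked genes, was 8 female and 10 male arrays without p107 and 9 female and 7 male with it, and with a sex term 1 of 38 genes was called. All 3 p130 KO arrays were female and 5 of 6 p107;p130 DKO arrays male. In that comparison a sex term moved the median of the 38 genes from -0.20 to -0.11.

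Loss of p130 was followed by no called change among the hepatocyte genes. By limma, 0 of 38 were called, where 0.0157% of all genes tested were. Of all genes tested 10.1% had an unadjusted p under 0.05, and 3 of the 38 did. Those were Cps1 at 0.77 ± 0.37, Apoa1 at -0.24 ± 0.11 and Itih1, a hyaluronan-binding plasma protein, at 0.25 ± 0.12, with adjusted p from 0.48 to 0.485. With array group as a block 0 had an unadjusted p under 0.05, and Cps1 was at 0.32 ± 0.29, Apoa1 at -0.03 ± 0.09 and Itih1 at 0.28 ± 0.14. All 9 arrays of array group 3, where Cps1 was high, lacked p130.

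Single genotypes were then set against each other. The TKO against the p107;p130 DKO compared Rb1 loss with 6 arrays each, of which 4 TKO arrays and 1 DKO array were female. Array groups 1, 2 and 3 held 1, 2 and 3 of the TKO arrays and 3, 2 and 1 of the DKO arrays. Here 31 of 38 genes had values above 0 with a median of 0.14, which was 0.069 without TKO array 1. By limma 0 were called, where 0.377% of all genes tested were. Of all genes tested 47.2% were above 0 and 6.02% had an unadjusted p under 0.05. Among the 38, 2 had an unadjusted p under 0.05. Cps1 was the largest at 1.42 ± 0.55 (adjusted p = 0.574), with 461.5 as its highest TKO array and 64.5 as its lowest. The p107;p130 DKO arrays lay between 30.9 and 71.3 except for array 4 at 602, so the groups overlapped. Cps1 was at 0.78 ± 0.37 with array group as a block (adjusted p = 0.46 by limma). Serpinc1, antithrombin, was at 0.42 ± 0.20 (adjusted p = 0.798) and above the DKO mean on 6 of 6 arrays. In the Rb1;p130 DKO against the p130 KO, 31 of 38 values were below 0 with a median of -0.09. Of all genes 48.2% were above 0 there, 5.3% had an unadjusted p under 0.05 and 0.118% were called. By limma 0 of the 38 were called and 0 had an unadjusted p under 0.05. Without p130 KO array 2 that median was 0.12.

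The test of whether Rb1 loss acted differently with and without p107, in fetuses that lacked p130, called 0 of 38 genes by limma, as it did for 0% of all genes tested. 34 of 38 values were above 0, against 48.6% of all genes tested, and 0 had an unadjusted p under 0.05, against 1.64%. The median of the 38 was 0.23. Without p130 KO array 2 the median was 0.0075. Loss of p107 beside p130 loss, the p107;p130 DKO against the p130 KO, had 34 of 38 values below 0 and a median of -0.20. By limma 0 were called, where 0.0236% of all genes were. Of all genes 50.8% were above 0 and 4.42% had an unadjusted p under 0.05. Among the 38, 3 had an unadjusted p under 0.05, namely Acox2, Apoc1 and Apof. Without p130 KO array 2 the median was 0.00083. These comparisons share the p130 KO arrays.

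In the Rb1;p107 DKO against the Rb1;p130 DKO, Apoc1 was at -0.75 ± 0.22 (adjusted p = 0.0769 by limma), Apof at -0.67 ± 0.24 and F2 at -0.53 ± 0.21. These were -0.47, -0.54 and -0.10 with array group as a block. Here 0 of 38 were called, against 0.267% of all genes tested, and 5 had an unadjusted p under 0.05, against 18.3%. In the TKO against the Rb1;p130 DKO 0 of 38 were called, against 0.0236% of all genes. There 1 had an unadjusted p under 0.05, against 5.44% of all genes. In the TKO against the Rb1;p107 DKO 0 were called, against 0.00786% of all genes. There 4 had an unadjusted p under 0.05, against 7.47% of all genes. Against wild type, 0 were called in the Rb1 KO (0 with an unadjusted p under 0.05, 0.00786% of all genes called) and 0 in the TKO (1 and 0.0786%). Of all genes tested, 3.44% and 4.57% had an unadjusted p under 0.05 in these comparisons. Each rests on 2 wild type arrays, on which Alb read 27960 and 43410. Over all 8 genotypes, limma's F test called 0 of 38 genes, against 0.857% of all genes tested. Of all genes tested 10.5% had an unadjusted p under 0.05, as did 3 of the 38. The 3 were Apoc1 (adjusted p = 0.095), Acox2 (0.111) and Apof (0.157).

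Most pairs of hepatocyte genes had a correlation above 0 over the arrays. After the genotype means were removed, the 703 pairs of genes had a median Pearson r of 0.348 over 34 arrays, and 78.7% of pairs were above 0. All pairs share the same arrays, array group was not removed, and pairs of other genes were not read. These values are a description. Alb and Afp correlated at 0.963, Ttr and Apom, the carrier of sphingosine-1-phosphate, at 0.923, Vtn, vitronectin, and Hpx at 0.921, and Kng1, kininogen, and Fgb at 0.902. Pairs of clotting genes had a median r of 0.615, and pairs of plasma carriers 0.554. Pairs of a plasma carrier and a transcription factor had a median of -0.0467, while pairs of transcription factors had a median of 0.428. Dlk1, a surface protein of hepatoblasts, had a median r of 0.549 with the clotting genes, 0.547 with the transcription factors, 0.232 with the plasma carriers and 0.0586 with the apolipoproteins. Its closest partner was F2, at 0.852.

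**Figure D5:**
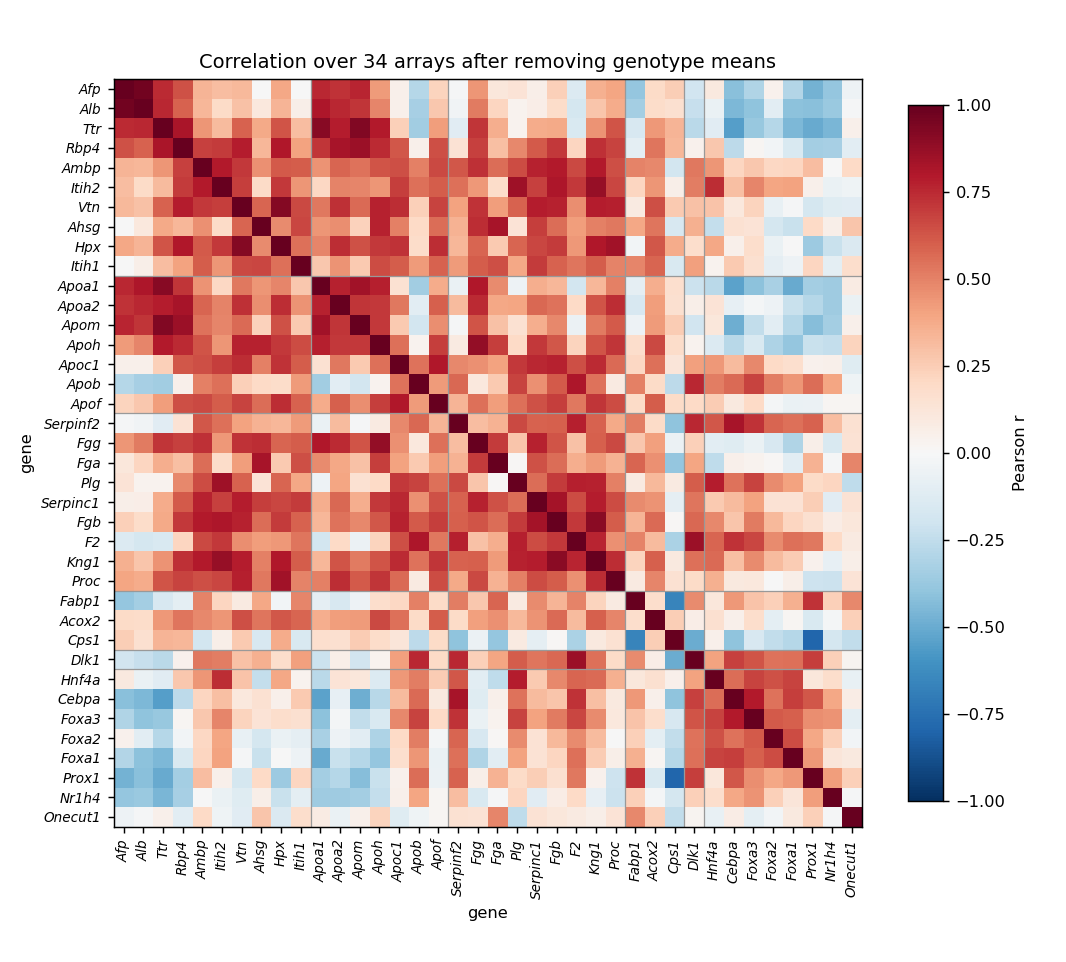
Pearson correlation over 34 arrays, after removal of genotype means, between all pairs of the 38 hepatocyte genes, ordered by role. Plasma carriers, apolipoproteins and clotting genes are mostly red, with Alb and Afp at 0.963 and single pairs down to -0.349. Plasma carriers against transcription factors are mixed, from -0.553 to 0.74 with a median of -0.0467.

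Alb and Hnf4a were used as anchors for tests of correlation, with 73 relations adjusted together. Unlike above, genotype means were left in, and arrays were permuted across genotypes. Of these 73 relations 21 passed an adjusted permutation p of 0.05 by Pearson's r (9 with Alb, 12 with Hnf4a) and 25 by Spearman's rho. After genotype means were removed, 24 passed by Pearson's r (11 with Alb, 13 with Hnf4a) and 28 by Spearman's rho. The values below are those with genotype means left in. The anchors differed between array groups. Within array group 1, 17 relations with Alb and 1 with Hnf4a passed, within array group 2 these were 1 and 7, and within array group 3 they were 1 and 3. The Alb and Afp values had r = 0.963 (adjusted permutation p = 1.82e-04) and rho = 0.951 (1.82e-04, from a raw p of 1e-05, the smallest that the permutations can give). Without the 2 arrays farthest from the Alb median r was 0.955, and within array groups 1, 2 and 3 it was 0.976, 0.975 and 0.951. By mean signal Alb and Afp ranked 14 and 5 of all genes on the array. Whether an upper limit of the scanner or the scaling of the arrays contributed to their correlation was not tested. Hnf4a and Plg, plasminogen, had r = 0.727 and rho = 0.69 (adjusted permutation p = 1.82e-04 and 2.92e-04). Without the 2 farthest arrays r was 0.721. Within array groups 1, 2 and 3 it was -0.192, 0.808 and 0.769, so the relation did not hold in array group 1. Alb and Cebpa had r = -0.498 and rho = -0.524 (adjusted permutation p = 0.011 and 0.00866), with r = -0.569 without the 2 farthest arrays and -0.526, 0.269 and -0.018 within the array groups, of which none passed the adjusted threshold. Alb and Hnf4a had r = -0.0969 and rho = -0.261 (adjusted permutation p = 0.686 and 0.23).

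Other probe sets of the same gene did not all agree. The probe set of Afp with the third highest mean signal, 32940, correlated with the one used at r = -0.234 over 34 arrays, against 0.896 for the second. For Apom the second probe set correlated at 0.366, and for Hnf4a the others at 0.514, 0.461 and 0.263. The probe sets of Apoa1 correlated with the one used at 0.924 to 0.955. Apof, Apoc1 and Acox2 have 1 probe set each, so their p107 differences have no second reading on the array.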

How the data were processed

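RNA from unfractionated fetal liver was measured on 34 one-colour Affymetrix arrays. The deposited values are probe set intensity on a linear scale (MAS5 signal), which the authors made with GCOS 1.4, per the submitters' processing notes. The file held 45037 probe sets, of which 34945 matched 1 gene symbol, 932 several and 9160 none. Signals were rescaled to a common trimmed mean of 500 and turned into log2(signal + 32), which understates changes of low signals. Each gene took its probe set with the highest mean, and a gene was tested if 2 arrays or more reached a signal of 100. limma 3.58.1 in R 4.3.3 was fitted over all arrays (eBayes with trend, two-sided), with calls at an adjusted p of 0.05 (Benjamini-Hochberg). For arrays, their number limits the precision. An additive fit gave the loss of Rb1, p107 and p130, and 8 genotype pairs, an interaction and an F test were added.

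Members and lists were chosen with earlier results of these data known. Array groups were inferred from the signals of 2996 genes, with their number set at 3. The text names every member, the targeted genes, called genes of the further lists and the brightest of the cell type markers. Epor, Bpgm and Pdgfrb lie outside that rule and were named after their values were seen, and the checks of F13b, F9, C8a, Pdgfrb and Epor were added then too. Sex was read from the arrays. Alternatives were 14 settings and leaving out each of 34 arrays. Steps were tested on simulated data. Permutation tests drew 100000 resamples, or all orders for 9 arrays.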

Additional observations from a re-analysis of the deposited data

Results flagged for a closer look

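Of 152 sets of a gene in a genotype with 4 to 10 arrays, 10 had an array far from the others by Dixon's criterion, which chance alone meets in about 1 in 20 sets. Cps1 read 602 on p107;p130 DKO array 4, with the next array at 71.3, and 64.5 on TKO array 5, with the next at 264.6. On Rb1;p107 DKO array 1, Alb read 33240 (next 41260) and Afp 34510 (next 43170). In the Rb1;p130 DKO, Proc read 804.3 on array 6 (next 1106), Hpx 3017 on array 4 (next 4157) and Hnf4a 2057 on array 9 (next 1234). In the TKO, Apoh read 3424 on array 5 (next 4332), Ahsg 3592 on array 3 (next 4833) and Fgg 8469 on array 2 (next 6982).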

How the results depend on the processing

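The count of hepatocyte genes called with p107 loss, 3, moved to 1 with no filter on low signal, 1 with eBayes without the trend, 1 with a sex term, 0 with array group as a block, 5 with array weights and 5 without Rb1;p130 DKO arrays 8 and 9. Leaving out each array in turn gave 1 to 4, while 69 to 335 of all genes tested were called. For the Rb1;p107 DKO against the Rb1;p130 DKO the count of 0 became 7 with array weights, 1 with the arrays of those groups alone and 4 with the replicate number as a block, and leaving out arrays gave 0 to 1 (1 without Rb1;p107 DKO array 1). Over all genes tested, leaving out arrays gave 6 to 812 called there. For the F test over genotypes 0 became 2 with array weights, and leaving out arrays gave 0 to 1 (1 without p130 KO array 1, p107;p130 DKO array 4, Rb1;p130 DKO array 4 or TKO array 1). Of all genes tested, 81 to 185 were then called. The counts of all genes called under most other settings are not given here. The moved counts therefore do not show a change particular to the hepatocyte genes. The 21 correlations became 18 within array group 1 (17 with Alb, 1 with Hnf4a), 8 within array group 2 and 4 within array group 3, the last 2 of which hold 10 and 9 arrays. The settings within array groups or with the compared groups alone use fewer arrays, and the cause of the other changes was not tested. The replicate block gave no other moved count. Replicate numbers were not taken as pairs, because the labels give them no meaning. After removal of genotype means, 27 of 67 pairs of same-numbered arrays correlated above 0.1 (median 0.0688). Of differently numbered pairs, 76 of 380 did (median -0.00874). Whether the numbers mark a shared batch was not tested. No result was reversed, but the median of the genes changed sign in 7 of 14 settings for the TKO against the Rb1;p130 DKO and in 1 to 2 of the settings for p130 loss, the Rb1;p130 DKO against the p130 KO and both comparisons with wild type. All other counts of called genes stayed at 0 when arrays were left out, 0 to 0. Of the other counts of called genes or correlations in these settings, 171 were equal to the main count or changed by a factor of at most 1.5. That number covers neither the calls of single genes nor the medians.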
